A study of Mus musculus with 5 samples.

Results

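The endothelial and mesenchymal cells of mouse lungs taken 21 days after lipopolysaccharide (LPS) are described, in which the integrin subunit gene *Itgb1* was not the target of deletion. Cells were chosen by the RNA they carried, from single-cell libraries of lungs with and without *Itgb1* deletion in the alveolar epithelium. Endothelial cells held at least 2 UMIs (unique molecular identifiers, by which captured RNA molecules were counted once) of *Cdh5* and *Pecam1* together and none of *Epcam*, *Pdgfra*, *Pdgfrb* or *Ptprc*. Mesenchymal cells held at least 2 UMIs of *Col1a2* and none of *Cdh5*, *Pecam1*, *Epcam* or *Ptprc*. At day 21, 2565 of 5259 cells that passed the filter met 1 of these gates, out of 29500 cells in all 5 libraries of the series. They comprised 1187 fl/fl and 882 iKO endothelial cells and 331 fl/fl and 165 iKO mesenchymal cells. The question was whether the deletion in the epithelium went with a difference in the cells around it.

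iKO mice carried SP-C rtTA and Tet-O-Cre transgenes with homozygous floxed *Itgb1* alleles, so that Cre was made in cells that use the surfactant protein C promoter while doxycycline was given. fl/fl mice were littermates with the floxed alleles and neither transgene. Both were on the C57BL/6 background, received doxycycline and, at 3 months of age, a single intratracheal dose of LPS. Sorting kept viable cells negative for CD45 and Ter119, and EPCAM-positive cells (CD326) were added to both day 21 suspensions. Each genotype was 1 library at each time point, so genotype and library cannot be told apart. Cells were stained with hashtag antibodies to mark individual mice before pooling, and 3 hashtags were in use in each library. Sums of UMIs over the cells of 1 hashtag served as replicates (n = 3 per genotype), and cells with no hashtag or several were left out of them.

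Capillaries of the alveolus hold 2 kinds of endothelial cell. Aerocytes are large, thin cells specialised for gas exchange and carry *Car4* and *Ednrb*. General capillary cells carry *Gpihbp1* and *Plvap*, divide after injury and act as progenitors of both kinds. Fibroblasts, pericytes and smooth muscle cells make up most of the mesenchyme, lay down matrix and supply growth factors to alveolar type 2 cells. Integrin β1 is the shared partner of many integrin α subunits and binds collagens, laminins and fibronectin of the matrix.

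The libraries differed in ways that touch every comparison below. Cells that passed the filter held 8360954 UMIs in fl/fl and 17620042 in iKO, with a median of 2214 and 1991.5 UMIs per endothelial cell and 3252 and 3081 per mesenchymal cell. A single hashtag was carried by 50.3% of fl/fl and 63.3% of iKO cells, which left 211, 205 and 312 fl/fl and 142, 280 and 219 iKO endothelial cells in the 3 hashtags. Only 26, 13 and 24 fl/fl and 15, 24 and 8 iKO mesenchymal cells carried 1. Both genotypes held cells of both sexes, but not evenly. fl/fl hashtag 1 held 48 endothelial cells with Y-linked RNA only and 15 with *Xist* only, whereas fl/fl hashtags 2 and 3 held 97 and 136 with *Xist* only and at most 1 with Y-linked RNA only. In iKO, hashtag 1 held 4 with Y-linked RNA only and 45 with *Xist* only, hashtag 2 held 66 and 13, and hashtag 3 held 64 and 5. Whether such mixing came from pooled animals or misassigned hashtags was not tested. Sex thus went partly with genotype, and comparisons were limited to autosomal genes. Venous markers summed to 1487 CPM (UMIs per 1000000 UMIs of the gated cells of a hashtag) in fl/fl hashtag 1 and to 443 to 588 CPM in the other 5. The 2 libraries shared 15 barcodes.

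*Cldn5*, an endothelial tight junction gene that the gate did not use, lay between 1465 and 1882 CPM in the endothelial sums of the 6 hashtags. *Epcam*, *Ptprc* and *Pdgfra* were at 0 there by the gate, and *Cd3e* and *Cd79a*, markers of T and B cells, were at 0 in all 6. *Itgb1* itself (chr8:128685654-128733200, + strand, mm10) was at 864, 846 and 959 CPM in fl/fl and 1022, 976 and 896 CPM in iKO endothelial cells. The groups overlapped (exact permutation test, two-sided, p = 0.2, where 3 against 3 cannot go below 0.1), and edgeR gave a log2 fold change 0.13 ± 0.10 (SE), adjusted p = 0.67. In mesenchymal cells it was at 658, 654 and 557 CPM in fl/fl and 588, 932 and 1101 CPM in iKO, again overlapping (exact permutation p = 0.3). In cells of an epithelial gate (*Epcam* at least 2 UMIs, with no UMI of the endothelial, mesenchymal or leukocyte gate genes) it was at 348, 321 and 356 CPM in fl/fl and 148, 165 and 142 CPM in iKO, without overlap (exact permutation p = 0.1, the smallest possible). The endothelial effect differed from the epithelial one by 1.44, adjusted p = 5.4e-12 (log2, edgeR interaction of genotype and compartment, added after seeing the data). These are levels of the whole transcript, and a sequence outside a deleted exon would still be counted.

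Within the endothelium, more iKO cells met the aerocyte gate and fewer the general capillary gate. The aerocyte gate (*Car4* and *Ednrb* at least 2 UMIs, *Gpihbp1* and *Plvap* at most 1) held 13.7%, 20.0% and 23.4% of fl/fl and 38.7%, 29.6% and 32.9% of iKO endothelial cells in the 3 hashtags. All 3 iKO hashtags were above all 3 fl/fl hashtags, with a difference of 14.7 percentage points between means of 19% ± 4.90 (SD, n = 3) and 33.8% ± 4.61 (exact permutation p = 0.1, the smallest possible). General capillary cells, gated the opposite way, were 50.2%, 42.9% and 45.5% in fl/fl and 34.5%, 31.4% and 40.2% in iKO, with means of 46.2% and 35.4% and no overlap (exact permutation p = 0.1). The separation was lost with hashtags assigned at 60% of tag counts, where aerocytes were 6.33%, 40.1% and 21.3% in fl/fl and 50.2%, 37.5% and 14.6% in iKO, and both shares overlapped (exact permutation p = 0.5 each). With every endothelial cell of a library counted, hashtag or none, the aerocyte share was 33.8% and 44.2% and the general capillary share 35.9% and 28.5%. Hashtags were recovered unevenly: only 35.7% of fl/fl and 53.8% of iKO aerocyte cells carried a single hashtag, against 78.9% and 89.6% of general capillary cells. The part of that unevenness in the difference was not tested.

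At day 7 after LPS the same shares stood the other way round. There the aerocyte gate held 16.2% ± 0.58 of fl/fl and 8.92% ± 1.03 of iKO endothelial cells (SD, n = 3), and the general capillary gate 32.8% ± 1.28 and 46.3% ± 0.996. The genotype difference at day 21 exceeded that at day 7 by 21.9 percentage points for aerocytes, and for general capillary cells it was lower by 24.3 points (exact permutation of genotype within each day, p = 0.005 for each, the smallest possible). With a hashtag assigned where it held 60% of a cell's tag counts, these p-values were 0.18 and 0.07. All 3 fl/fl hashtags of day 7 held *Xist* RNA and no Y-linked RNA, and the 3 iKO hashtags held Y-linked RNA and at most 1 cell with *Xist* only, so genotype and sex cannot be told apart at day 7, nor can the day from the EPCAM enrichment and the separate libraries.

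**Figure D1:**
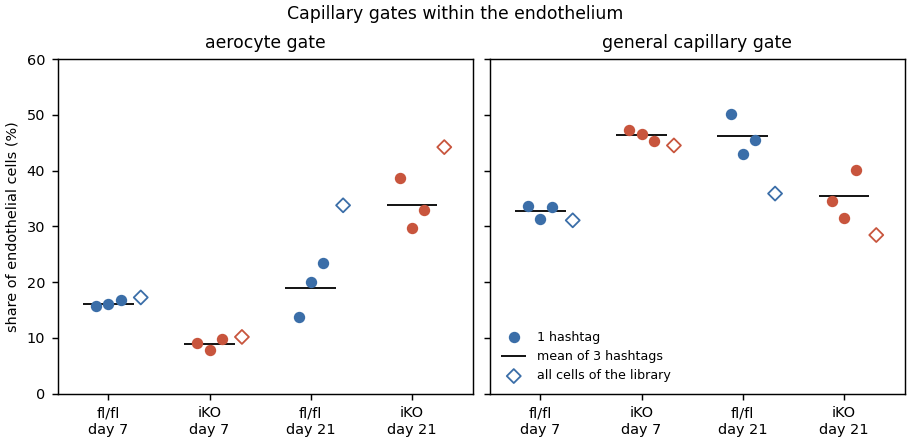
Share of endothelial cells (%, vertical axis) that met the aerocyte gate and the general capillary gate, for fl/fl (blue) and iKO (red) at days 7 and 21. Filled points are hashtags, lines their mean and open diamonds all cells of the library. At day 21 the iKO aerocyte points (29.6% to 38.7%) lie above the fl/fl points (13.7% to 23.4%), and at day 7 they lie below.

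Endothelial cells made up 65.2% ± 2.76 of fl/fl and 32.8% ± 6.87 of iKO cells with a single hashtag, mesenchymal cells 5.68% ± 1.80 and 2.47% ± 1.18, and epithelial cells 10.1% ± 1.55 and 34.6% ± 5.12 (SD, n = 3). None of the 3 shares overlapped between genotypes (exact permutation p = 0.1 each, the smallest possible). With hashtags at 60% of tag counts the endothelial and mesenchymal shares overlapped (exact permutation p = 0.2 and 0.6). Since sorted EPCAM-positive cells were added to both suspensions, these shares do not give the makeup of the lung.

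In endothelial cells, 7018 autosomal genes had enough UMIs to be tested by edgeR's quasi-likelihood test on the hashtag sums, and 133 passed at an adjusted p under 0.05 (1.90%). They were 66 higher in iKO (0.940%) and 67 lower (0.955%), and 918 genes had an unadjusted p under 0.05. The 3 fl/fl and 3 iKO values did not overlap for 1321 genes, 18.8% of those tested. The genes that fell included transcription factors and feedback regulators of the immediate early response, interferon-stimulated genes, general capillary genes and ribosomal protein genes. The genes that rose included the aerocyte gene *Car4* and many transcripts of the alveolar epithelium. With genes left out that were at least 10 times higher in epithelial cells, 94 of 6966 passed, 33 higher and 61 lower. The count of 133 fell to 78 without fl/fl hashtag 2 and to 74, 49 and 66 without iKO hashtags 1, 2 and 3. It was 195 and 174 without fl/fl hashtags 1 and 3. Because the capillary gates were in unequal proportion, the test was repeated within each gate. Within general capillary cells 49 of 3790 genes passed (1.29%), 25 higher (0.660%) and 24 lower (0.633%), and within aerocytes 31 of 3276 (0.946%), 7 higher (0.214%) and 24 lower (0.733%). Of the 133 genes, 104 were tested in general capillary cells, where 98 had the same sign and 33 also passed. In aerocytes 102 were tested, all 102 had the same sign and 22 passed. The cells of both gates were among those that gave the 133 genes, so these counts are not an independent check.

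**Figure D2:**
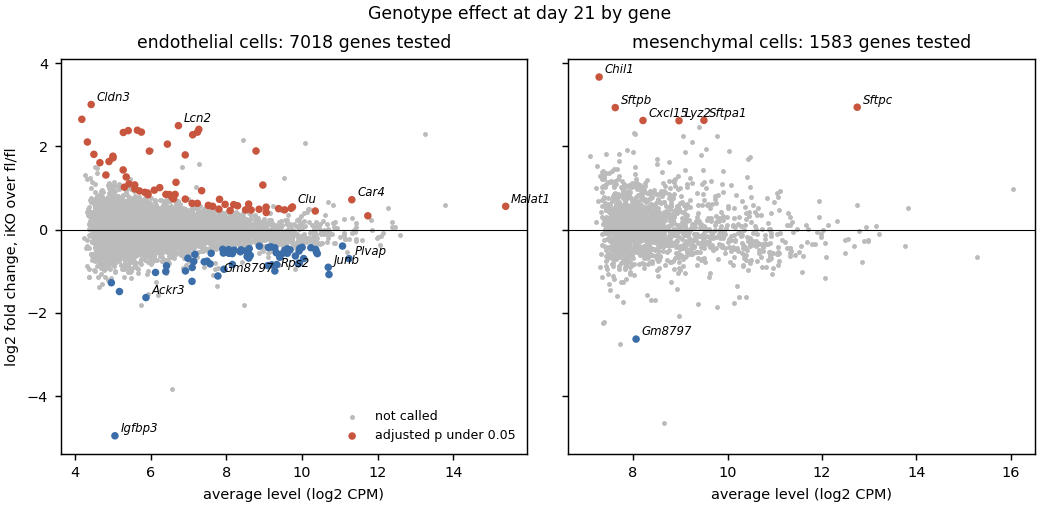
Genotype effect at day 21 (log2 fold change, iKO over fl/fl, vertical axis) against the average level (log2 CPM, horizontal axis) in endothelial cells (left, 7018 genes) and mesenchymal cells (right, 1583 genes). Each point is a gene, grey where the adjusted p was 0.05 or more and coloured where it was under 0.05 (red higher, blue lower in iKO), with 133 coloured genes on the left and 7 on the right.

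Immediate early genes were lower in iKO endothelial cells. These genes encode transcription factors and feedback regulators that are switched on within minutes by growth factors, shear stress, cytokines and tissue handling. Of 27 genes in the list, 22 were tested, 10 fell (beside 0.955% of all genes tested) and none rose, and all 22 had a log2 fold change below 0, with a median of -0.62 beside -0.003 over all genes tested. *Junb*, a subunit of the AP-1 transcription factor, was at 2482, 1892 and 1647 CPM in fl/fl and 972, 1059.9 and 1150.4 CPM in iKO (log2 fold change -0.91 ± 0.13 (SE), adjusted p = 8.6e-04). *Fosb*, which pairs with Jun proteins, was at 307, 316 and 259 CPM in fl/fl and 139, 146 and 162 CPM in iKO (log2 fold change -0.95 ± 0.13 (SE), adjusted p = 2.5e-05). *Dusp1*, a phosphatase that switches off MAP kinases, was at 1257, 1247 and 1131 CPM in fl/fl and 684, 675 and 863 CPM in iKO (log2 fold change -0.70 ± 0.11 (SE), adjusted p = 1.1e-04). For each of these 3 genes every iKO hashtag lay below every fl/fl hashtag. *Nr4a1*, an orphan nuclear receptor, was at 163, 145 and 124 CPM in fl/fl and 65.0, 62.7 and 84.9 CPM in iKO (log2 fold change -0.99 ± 0.18 (SE), adjusted p = 0.0014). *Ier3*, an early response gene that modulates cell survival, was at 2804, 1771 and 1771 CPM in fl/fl and 935, 984 and 1057 CPM in iKO (log2 fold change -1.08 ± 0.19 (SE), adjusted p = 0.04), with fl/fl hashtag 1 the highest. Their groups were likewise separate.

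The other genes of the list that fell were *Egr1* (-0.82, adjusted p = 0.0022), *Ier2* (-0.54, 0.0082), *Klf4* (-0.48, 0.0077), *Btg2* (-0.49, 0.028) and *Cyr61* (-0.54, 0.047). *Klf4* encodes a factor that restrains inflammatory genes in endothelium and *Cyr61* a matrix protein and YAP target. *Ppp1r15a*, which directs a phosphatase to the translation factor eIF2α and was not in the list, fell as well, at 827, 784 and 678 CPM in fl/fl and 403, 437 and 423 CPM in iKO (log2 fold change -0.84 ± 0.11 (SE), adjusted p = 6.5e-06). The members with fold changes nearest 0 were *Jund* (-0.04, adjusted p = 0.92), *Jun* (-0.15, 0.47) and *Klf6* (-0.15, 0.63). Heat shock and chaperone genes, 22 tested, had no member that passed and a median of -0.005.

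Members of the list fell in both capillary gates. Within general capillary cells 19 genes of the list were tested, 4 fell (*Dusp1*, *Fosb*, *Junb* and *Zfp36*) beside 0.633% of all genes, and the median was -0.38. Within aerocytes 19 were tested, 8 fell (beside 0.733%), all 19 were below 0 and the median was -0.84. In general capillary cells *Junb* was at 3009, 2141 and 1876 CPM in fl/fl and 1694, 1297 and 1373 CPM in iKO (-0.68, adjusted p = 0.011). In aerocytes it was at 1843, 1201 and 1102 CPM in fl/fl and 658, 555 and 449.6 CPM in iKO (-1.27, adjusted p = 7.5e-06). *Junb* therefore stood lower in iKO in each gate without overlap, and its level in aerocytes was below that in general capillary cells of the same hashtag throughout. With 1 hashtag left out the number of members that fell ranged from 5 (without iKO hashtag 2) and 6 (without iKO hashtag 1) to 12, with medians from -0.48 to -0.78. It was 1, with a median of -0.50, when a hashtag was assigned at 60% of tag counts. With the aerocyte share of each hashtag as a covariate no member passed and the median was -0.24.

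**Figure D3:**
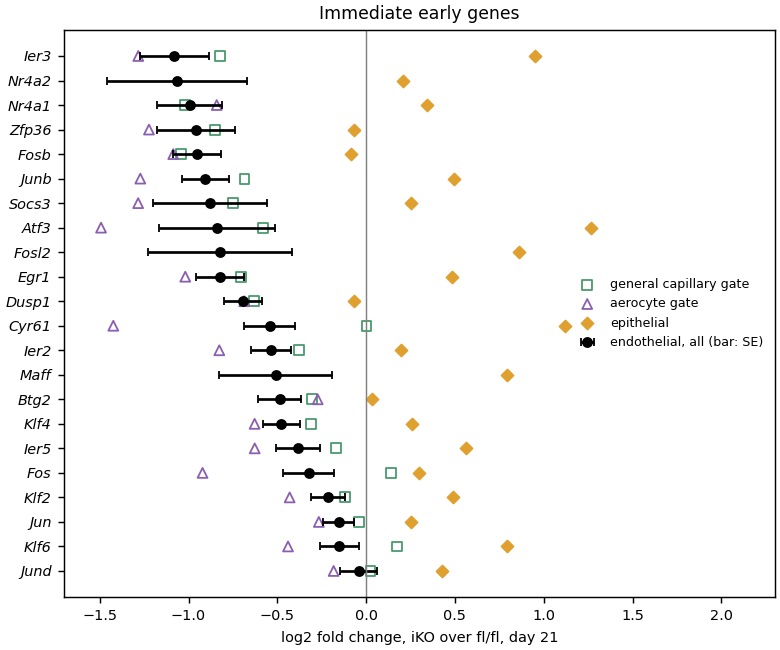
Log2 fold change (iKO over fl/fl, day 21, horizontal axis) of the 22 immediate early genes tested in endothelial cells (black, bars are standard errors), in cells of the general capillary gate (squares), of the aerocyte gate (triangles) and of the epithelial gate (diamonds). All 22 black points lie below 0, while the median over the 25 such genes tested in epithelial cells was 0.43.

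Promoters are shown for the immediate early and interferon-responsive genes that fell and carried a motif of the factors known to drive such genes. The cyclic AMP response element (CRE, TGACGTCA) and the CArG box of serum response factor were searched on both strands in bases -250 to -1 before the RefSeq start (GRCm38.p6). Of the 10 immediate early genes that fell, 7 had an entry, and a CRE was found in *Btg2* (at -166) and *Dusp1* (at -143), against 1.62% of 27025 promoters. No CArG box was found in the 7 windows, against 1.40% of promoters. *Cyr61*, *Egr1* and *Ier2* had no entry. The interferon-stimulated response element (ISRE) was found in *Irgm1* as an overlapping pair (at -30 and -24) and, on the reverse strand, in *H2-T23* (at -124), against 3.04% of promoters. The gamma-activated site (GAS, TTCNNNGAA) was found in *Irf1* at 1 of its 2 starts (at -90), against 7.18%. *Rtp4* had no entry. A match is a run of letters and not evidence of binding. The motifs are in capitals.
Btg2 promoter, chr1:134079156-134079405, - strand: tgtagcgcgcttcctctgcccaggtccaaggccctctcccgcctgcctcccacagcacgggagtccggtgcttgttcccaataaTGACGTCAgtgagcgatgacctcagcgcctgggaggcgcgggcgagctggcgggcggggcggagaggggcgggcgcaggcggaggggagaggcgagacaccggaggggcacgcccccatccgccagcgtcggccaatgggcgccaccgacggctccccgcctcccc
Dusp1 promoter, chr17:26508473-26508722, - strand: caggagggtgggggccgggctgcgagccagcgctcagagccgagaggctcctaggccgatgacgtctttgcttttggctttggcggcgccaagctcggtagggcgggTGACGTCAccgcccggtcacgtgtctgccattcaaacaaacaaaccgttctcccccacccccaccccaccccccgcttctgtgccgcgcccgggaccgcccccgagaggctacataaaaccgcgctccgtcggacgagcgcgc
Irf1 promoter, chr11:53769764-53770013, + strand: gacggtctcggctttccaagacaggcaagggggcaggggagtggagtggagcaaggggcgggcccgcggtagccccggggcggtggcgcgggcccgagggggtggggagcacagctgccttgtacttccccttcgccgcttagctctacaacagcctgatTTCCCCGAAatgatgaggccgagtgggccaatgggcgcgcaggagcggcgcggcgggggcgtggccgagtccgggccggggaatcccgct
Irgm1 promoter, chr11:48871421-48871670, - strand: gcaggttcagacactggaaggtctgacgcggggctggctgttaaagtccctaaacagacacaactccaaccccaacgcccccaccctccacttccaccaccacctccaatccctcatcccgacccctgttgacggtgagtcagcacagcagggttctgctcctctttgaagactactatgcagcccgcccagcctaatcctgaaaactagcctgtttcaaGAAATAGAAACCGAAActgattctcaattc
H2-T23 promoter, chr17:36032702-36032951, - strand: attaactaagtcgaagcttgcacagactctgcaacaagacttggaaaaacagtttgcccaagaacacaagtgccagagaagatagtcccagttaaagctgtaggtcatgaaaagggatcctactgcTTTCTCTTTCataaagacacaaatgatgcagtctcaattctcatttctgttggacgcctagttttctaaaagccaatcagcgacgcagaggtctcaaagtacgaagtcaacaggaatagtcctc

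A few genes stimulated by interferon fell in iKO endothelium. Of 35 genes, 28 were tested, 3 fell (beside 0.955% of all genes tested), none rose, 26 were below 0, and the median was -0.44. With the aerocyte share as a covariate none passed, 13 of 28 were below 0 and the median was 0.03. *Irf1*, a transcription factor induced by interferon gamma, was at 884, 649 and 581 CPM in fl/fl and 458, 509 and 451 CPM in iKO (log2 fold change -0.56 ± 0.13 (SE), adjusted p = 0.032). *Irgm1*, a GTPase of defence against intracellular pathogens, was at 206, 139 and 135 CPM in fl/fl and 77.4, 70.2 and 105 CPM in iKO (log2 fold change -0.91 ± 0.19 (SE), adjusted p = 0.01). *Rtp4*, an interferon-inducible chaperone, was at 267, 162 and 184 CPM in fl/fl and 130.1, 121 and 109 CPM in iKO (log2 fold change -0.76 ± 0.17 (SE), adjusted p = 0.015). In all 3 the groups did not overlap and fl/fl hashtag 1 was the highest value. *H2-T23* (Qa-1, a nonclassical class I molecule) was the only 1 of 18 antigen presentation genes tested that passed, at 972, 717 and 833 CPM in fl/fl and 694, 527 and 611 CPM in iKO (log2 fold change -0.46 ± 0.12 (SE), adjusted p = 0.04).

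In general capillary cells 24 genes of the list were tested and 4 fell (*Iigp1*, *Irf1*, *Irgm1* and *Rtp4*), beside 0.633% of all genes. The median there was -0.47. In aerocytes none of 18 passed, where 0.733% of all genes fell, and the median was 0.06. The difference between the gates was not tested. In general capillary cells *Irf1* was at 979, 786 and 696 CPM in fl/fl and 645, 504 and 464 CPM in iKO (-0.62, adjusted p = 0.025), without overlap. In aerocytes it was at 711, 538 and 397 CPM in fl/fl and 378, 487 and 402 CPM in iKO, with overlap (-0.28, adjusted p = 0.58). Without fl/fl hashtag 1 the list's median was -0.22 and 18 of 29 members were below 0. Without iKO hashtag 1 or 2 no member passed.

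**Figure D4:**
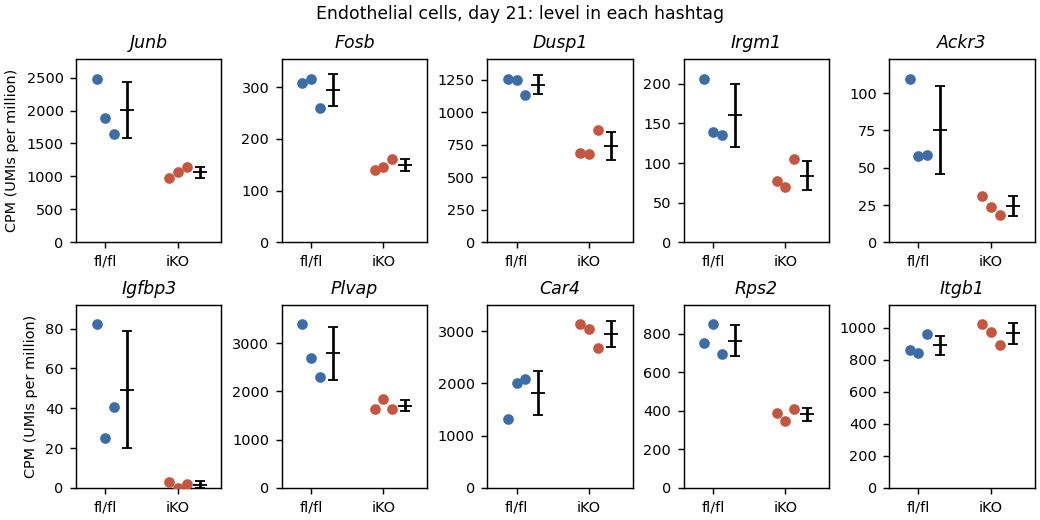
Level of 10 genes (CPM, vertical axis from 0) in the endothelial cells of each fl/fl (blue) and iKO (red) hashtag at day 21, with the mean and SD (black, n = 3). The groups overlap for *Itgb1* and not for the other genes.

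Few markers of capillary identity passed. Of 9 aerocyte markers tested, 1 rose (beside 0.940% of all genes) and all 9 were above 0, with a median of 0.47. Of 10 general capillary markers, 2 fell (beside 0.955%) and all 10 were below 0, with a median of -0.34. *Car4*, a carbonic anhydrase on the aerocyte surface, was at 1322, 2016 and 2081 CPM in fl/fl and 3128, 3044 and 2667 CPM in iKO (log2 fold change 0.72 ± 0.14 (SE), adjusted p = 0.025). *Plvap*, which forms the diaphragms of fenestrae and caveolae, was at 3389.8, 2686 and 2305 CPM in fl/fl and 1645, 1838 and 1639.7 CPM in iKO (log2 fold change -0.70 ± 0.12 (SE), adjusted p = 0.0016). *Tek*, the angiopoietin receptor TIE2, was at 610.0, 615 and 538 CPM in fl/fl and 424, 433 and 437 CPM in iKO (log2 fold change -0.43 ± 0.11 (SE), adjusted p = 0.028). The groups did not overlap for any of these. Within the aerocyte gate *Car4* was at 4939, 6364 and 5345 CPM in fl/fl and 5998, 6998 and 5888 CPM in iKO (0.22, adjusted p = 0.45), and within general capillary cells the 10 markers had a median of 0.03 with none passing, but *Car4* and *Plvap* had been used to set these gates. Arterial (7 tested), venous (6) and lymphatic markers (3) had medians of -0.37, -0.58 and -0.52 with none passing. The sum of the lymphatic markers was 1203 to 1318 CPM in fl/fl and 406 to 823 CPM in iKO.

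Regulators of vascular growth changed in both directions. Of 22 genes of VEGF, angiopoietin, apelin and Notch signalling tested, *Sox18*, *Klf4* and *Tek* fell and *Nrp1* rose. *Sox18*, a transcription factor of vascular and lymphatic development, was at 426, 464 and 436 CPM in fl/fl and 294, 279 and 283 CPM in iKO (log2 fold change -0.62 ± 0.11 (SE), adjusted p = 0.0011). *Nrp1*, a coreceptor of VEGF, was at 813, 1021 and 1258 CPM in fl/fl and 1443, 1412 and 1334 CPM in iKO (log2 fold change 0.45 ± 0.12 (SE), adjusted p = 0.047). Of 19 genes of the TGF-β family tested, *Smad6* and *Bmp6* fell. *Smad6*, an inhibitor of BMP signalling, was at 407, 478 and 424 CPM in fl/fl and 297, 270.2 and 245 CPM in iKO (log2 fold change -0.68 ± 0.12 (SE), adjusted p = 6.3e-04) and *Bmp6*, a ligand, was at 411, 470.2 and 401 CPM in fl/fl and 226, 289.6 and 289 CPM in iKO (log2 fold change -0.64 ± 0.12 (SE), adjusted p = 0.002). None of these overlapped between genotypes. Within general capillary cells the fold changes were -0.35 for *Sox18*, -0.69 for *Smad6* and -0.33 for *Bmp6* (adjusted p = 0.64, 0.0501 and 0.62). Within aerocytes *Sox18* and *Klf4* fell, 2 of 13 genes tested of the first list (beside 0.733% of all genes). None of 13 genes tested of the TGF-β family passed there.

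The largest fall was that of *Igfbp3* (chr11:7206086-7213923, - strand), a secreted protein that binds insulin-like growth factors. It was at 82.2, 25.1 and 40.9 CPM in fl/fl and 3.1, 0 and 2.02 CPM in iKO (log2 fold change -4.95 ± 0.77 (SE), adjusted p = 0.0033), from 90 and 2 UMIs. Over all endothelial cells of the libraries, 46 of 1187 fl/fl cells held *Igfbp3* RNA (3.88%, exact 95% interval 2.85 to 5.14) and 3 of 882 iKO cells (0.340%, 0.0702 to 0.991). Of the 150 fl/fl UMIs, 80 came from 3 cells, and the 3 iKO cells held 1 UMI each. These intervals cover the counting of cells in 1 library per genotype. The fitted fold change depends on the prior count, as 1 iKO hashtag was at 0. Over the libraries the level was 49.3 CPM in fl/fl (exact 95% counting interval 41.7 to 57.8) and 1.46 CPM in iKO (0.300 to 4.25). *Ackr3*, a scavenger receptor for the chemokine CXCL12, was at 109.6, 57.8 and 58.8 CPM in fl/fl and 31.0, 23.9 and 18.2 CPM in iKO (log2 fold change -1.63 ± 0.30 (SE), adjusted p = 0.0022), without overlap. In general capillary cells it was at 183, 106 and 108 CPM in fl/fl and 76.5, 22.6 and 17.4 CPM in iKO (-2.01, adjusted p = 0.0012), and in aerocytes no hashtag exceeded 9.35 CPM. *Gsn* (gelsolin, an actin-severing protein) was at 129.7, 172 and 202 CPM in fl/fl and 74.3, 83.6 and 52.6 CPM in iKO (log2 fold change -1.24 ± 0.19 (SE), adjusted p = 1.1e-04). *Adamts1*, a secreted protease that cleaves versican, was at 727, 777 and 597 CPM in fl/fl and 282, 363 and 497 CPM in iKO (log2 fold change -0.85 ± 0.17 (SE), adjusted p = 0.035). Both were separate between genotypes. *Gsn* is also a marker of adventitial fibroblasts. Of 5 such markers tested in endothelial cells, *Gsn* and *Igfbp4* fell (beside 0.955% of all genes tested), all 5 were below 0 and the median was -0.62. Those markers summed to 771 to 1003 CPM in fl/fl and 548 to 606 CPM in iKO, and their part in the fall of *Gsn* was not tested. In general capillary cells *Gsn* had a fold change of -0.12, adjusted p = 0.96, and *Adamts1* of -0.68, adjusted p = 0.0041. Of 3 adventitial fibroblast markers tested there none passed, all 3 were below 0 and the median was -0.12.

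Of the other genes that rose, *Clu* (clusterin, a secreted chaperone) was at 625, 669 and 667 CPM in fl/fl and 827, 1021 and 974.5 CPM in iKO (log2 fold change 0.54 ± 0.10 (SE), adjusted p = 0.0022). *Timp2*, an inhibitor of metalloproteinases, was at 362, 383 and 462 CPM in fl/fl and 650.4, 554 and 554 CPM in iKO (log2 fold change 0.54 ± 0.11 (SE), adjusted p = 0.0067). *Col18a1*, the basement membrane collagen from which endostatin is cut, was at 1.83, 15.4 and 17.9 CPM in fl/fl and 55.7, 37.3 and 28.3 CPM in iKO (log2 fold change 1.64 ± 0.41 (SE), adjusted p = 0.036). The groups were separate in each, with fl/fl hashtag 1 the lowest for *Col18a1* and *Timp2*. Within general capillary cells *Clu* was at a fold change of 0.01, adjusted p = 0.997 and *Timp2* of -0.26, adjusted p = 0.81. *Sdc4*, a heparan sulfate proteoglycan that acts with integrins at adhesions, was the 1 gene to pass of 10 integrin and matrix receptor genes tested (beside 1.90% of all genes). It was at 43.8, 46.2 and 28.1 CPM in fl/fl and 74.3, 74.6 and 60.7 CPM in iKO (log2 fold change 0.88 ± 0.24 (SE), adjusted p = 0.048). *Calcrl*, the receptor of adrenomedullin, rose by a small amount, from 2832 ± 44.8 to 3535 ± 77.4 CPM (SD, n = 3), log2 fold change 0.33 ± 0.09 (SE), adjusted p = 0.041.

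Ribosomal protein genes had small negative fold changes. Of 76 tested, 75 were below 0 with a median of -0.28, and 9 fell (beside 0.955% of all genes). Without fl/fl hashtag 1 it was 23, without fl/fl hashtag 2 or iKO hashtag 3 it was 4, and without iKO hashtags 1 and 2 it was 5 and 6. In mesenchymal cells 74 of 75 were below 0 with a median of -0.48 and none passing. In epithelial cells 72 of 76 fell, with a median of -0.53, where 4.32% of all genes tested passed and 2.57% fell. Genotype and library cannot be told apart here. *Rps2*, a protein of the small subunit, stood apart from the list at 751, 848 and 692 CPM in fl/fl and 387, 345 and 410.4 CPM in iKO (log2 fold change -0.99 ± 0.11 (SE), adjusted p = 6.0e-07), and it fell by 1.15 on the log2 scale in epithelial cells and by 0.86 in endothelial cells at day 7. *Gm8797*, a predicted gene on chromosome 3 (chr3:5750806-5751295, + strand), was at 294, 260.1 and 257 CPM in fl/fl and 121, 127 and 121 CPM in iKO (log2 fold change -1.11 ± 0.14 (SE), adjusted p = 2.1e-06), without overlap, and its fold change at day 7 was -4.03 (adjusted p = 2.5e-09). Ribosomal protein genes have many processed pseudogenes, and *Gm8797* is a predicted gene, so the assignment of reads to both is uncertain.

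Transcripts of the alveolar epithelium were among the largest rises. The endothelial cells held no *Epcam* UMI, yet *Sftpc* (surfactant protein C), the most abundant transcript of type 2 cells, was at 4535, 2258 and 2344 CPM in fl/fl and 14008, 16260.2 and 14577 CPM in iKO endothelial cells. Of 19 epithelial markers, 17 were tested, 7 rose (*Ager*, *Chil1*, *Cxcl15*, *Lamp3*, *Lyz1*, *Napsa* and *Sftpd*) and none fell, with a median of 1.89, beside 0.940% of all genes that rose. *Sftpc* itself did not pass (log2 fold change 2.3 ± 0.35 (SE), adjusted p = 0.078). *Sftpd* (surfactant protein D) was at 65.8, 44.3 and 29.4 CPM in fl/fl and 235, 178 and 247 CPM in iKO (log2 fold change 2.28 ± 0.22 (SE), adjusted p = 6.0e-07). *Cxcl15*, a chemokine of lung epithelium, was at 268, 135 and 134 CPM in fl/fl and 644, 666 and 645 CPM in iKO (log2 fold change 1.89 ± 0.27 (SE), adjusted p = 0.029). In both, the 3 iKO hashtags were alike and above all fl/fl hashtags. Without fl/fl hashtag 1, 13 members rose, without fl/fl hashtags 2 and 3 it was 7 and 8, and without iKO hashtag 1, 2 or 3 it was 5. The summed markers made 3785 to 7231 CPM in fl/fl and 19667 to 21646 CPM in iKO. Over 13 epithelial genes, the level in endothelial cells was a median of 1.23% of that in epithelial cells of the same library in fl/fl (0.871% to 2.46%) and 5.19% in iKO (3.16% to 7.56%). In mesenchymal cells it was 0.436% and 2.61%. Epithelial cells were 10.1% of tagged cells in fl/fl and 34.6% in iKO. Their part in these levels was not tested. The deposited counts were not corrected for free RNA.

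**Figure D5:**
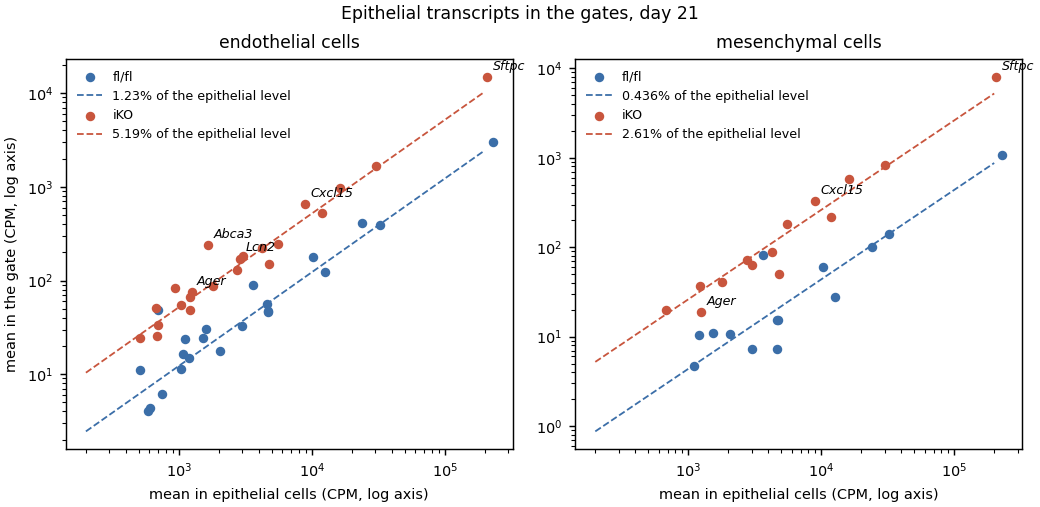
Mean level of epithelial genes in endothelial cells (left) and mesenchymal cells (right) against their mean level in epithelial cells of the same genotype (CPM, both axes logarithmic), in fl/fl (blue) and iKO (red). Dashed lines mark the median ratio, 1.23% and 5.19% on the left and 0.436% and 2.61% on the right, and the points follow them, with *Abca3* above its line.

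*Abca3*, the lipid transporter of lamellar bodies, was at 51.1, 52.0 and 40.9 CPM in fl/fl and 248, 229.9 and 241 CPM in iKO (log2 fold change 2.34 ± 0.17 (SE), adjusted p = 4.8e-11), which was 14.4% of its epithelial level in iKO and 6.83% in fl/fl, above the range of the 13 genes in both. It was higher in general capillary cells (2.45, adjusted p = 9.0e-08), in aerocytes (2.05, adjusted p = 2.5e-06), in epithelial cells (1.11, 5.7e-11) and in endothelial cells at day 7 (1.63, 2.0e-06). *Lcn2* (lipocalin 2, an iron-sequestering protein of the acute phase) was at 23.7, 38.5 and 29.4 CPM in fl/fl and 170.3, 158 and 186 CPM in iKO (log2 fold change 2.50 ± 0.20 (SE), adjusted p = 4.1e-10), 5.95% of its epithelial level in iKO and 1.91% in fl/fl, within the range of the other genes. In aerocytes *Lcn2* was at 18.7, 7.80 and 8.92 CPM in fl/fl and 176, 174 and 190.4 CPM in iKO (4.00, adjusted p = 1.2e-08). The list of epithelial markers, which holds neither *Abca3* nor *Lcn2*, stood otherwise in aerocytes. There 12 members were tested, none passed, 4 were below 0 and the median was 0.69. In general capillary cells 13 were tested, 12 rose (beside 0.660% of all genes) and the median was 2.32. The difference between the gates was not tested. *Il33*, an alarmin cytokine stored in type 2 cells, was at 18.3, 3.85 and 11.5 CPM in fl/fl and 40.3, 73.2 and 50.5 CPM in iKO (log2 fold change 2.33 ± 0.35 (SE), adjusted p = 9.6e-05), at 5.23% and 2.20% of the epithelial level.

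Few members of the other lists passed. None passed among 15 endothelial junction genes (median 0.07), 11 genes of leukocyte adhesion (0.02), 7 of fibrillar collagen and elastic fibre (-0.34), 12 of p53 and stress response (-0.03), 10 of the cell cycle (-0.18) or 8 glucocorticoid-responsive genes (-0.55). Of 9 basement membrane genes 1 rose (*Col18a1*), and of 24 nuclear genes of oxidative phosphorylation 1 fell (*Cox6b1*). Of 23 actin, myosin and YAP genes *Rock2* rose and *Cyr61* fell. Of 17 cytokine and NF-κB genes *Lcn2* and *Il33* rose, which stood at 5.95% and 5.23% of their epithelial levels in iKO. Over all genes tested, 0.940% rose and 0.955% fell. Called genes within 5 Mb of each other occurred in runs on chromosomes 2, 3, 7, 15 and 17, and every run held genes that rose and genes that fell. On chromosome 17 the neighbours *Gm26917* (chr17:39843013-39846341, + strand, 0.73) and *AY036118* (chr17:39847113-39848035, - strand, -0.84) moved in opposite directions.

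Mesenchymal cells gave far less depth, with 63 fl/fl and 47 iKO cells over 6 hashtags. Of 1583 genes tested, 7 passed (0.442%), 6 higher (0.379%) and 1 lower (0.0632%), 212 had an unadjusted p under 0.05, and 325 did not overlap between genotypes (20.5%). The 6 that rose were *Sftpc*, *Sftpa1*, *Sftpb*, *Chil1*, *Cxcl15* and *Lyz2*. The first 5 are epithelial markers, and *Lyz2* is a lysozyme of macrophages and type 2 cells. *Sftpc* was at 1166, 1066 and 1027 CPM in fl/fl and 9130.4, 7919 and 7029 CPM in iKO (log2 fold change 2.94 ± 0.25 (SE), adjusted p = 1.5e-04). *Chil1*, a chitinase-like protein, was at 14.9, 24.2 and 6.71 CPM in fl/fl and 156, 215 and 169 CPM in iKO (log2 fold change 3.67 ± 0.53 (SE), adjusted p = 0.0089). Every iKO value was above every fl/fl value. With genes left out that were at least 10 times higher in epithelial cells, edgeR called 0 of 1575 genes tested, with 204 at an unadjusted p under 0.05. The gene that fell was *Gm8797*, at 209, 230.2 and 295 CPM in fl/fl and 51.9, 20.5 and 56.5 CPM in iKO (log2 fold change -2.63 ± 0.47 (SE), adjusted p = 0.03).

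Of the genes below the threshold, those with the smallest unadjusted p and a fold change below 0 were *Hspa1b*, *Rbp4*, *Phlda1* and *Penk*. *Hspa1b*, an inducible heat shock protein, was at 202, 933 and 235 CPM in fl/fl and 17.3, 20.5 and 0 CPM in iKO (log2 fold change -4.66 ± 1.01 (SE), adjusted p = 0.12), and 44 of its 60 UMIs in all mesenchymal cells of the iKO library lay in 3 cells. *Rbp4*, which carries retinol, was at 164, 279 and 141 CPM in fl/fl and 34.6, 30.7 and 0 CPM in iKO (log2 fold change -2.74 ± 0.59 (SE), adjusted p = 0.08), and *Phlda1* was at 792, 1127 and 1336 CPM in fl/fl and 449.6, 379 and 395 CPM in iKO (log2 fold change -1.36 ± 0.30 (SE), adjusted p = 0.08). The values of these genes did not overlap between genotypes, as was so for 20.5% of all genes tested.

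No matrix or mural gene passed in mesenchymal cells. Of 25 genes of fibrillar collagen, elastic fibre and provisional matrix tested none passed and 5 were below 0, with a median of 0.28 beside 0.02 over all genes. Of 11 basement membrane genes none passed, with a median of 0.73. *Col4a1*, the main network collagen of basement membranes, was at 463, 279 and 584 CPM in fl/fl and 1608, 1659.7 and 875 CPM in iKO (log2 fold change 1.70 ± 0.35 (SE), adjusted p = 0.076). *Npnt* (nephronectin), a ligand of integrin α8β1 made by alveolar fibroblasts, was at 321, 424 and 195 CPM in fl/fl and 432, 1322 and 1609 CPM in iKO (log2 fold change 1.88 ± 0.46 (SE), adjusted p = 0.14), with the lowest iKO value close to the highest fl/fl value. Of 7 pericyte markers tested none passed, all 7 were above 0 and the median was 1.40. The 10 pericyte markers summed to 1412, 412 and 2880 CPM in fl/fl and 5257, 4825 and 4234 CPM in iKO, without overlap. Of 6 smooth muscle and myofibroblast markers tested none passed, 4 were below 0 and the median was -0.47. Adventitial fibroblast markers summed to 58902, 54228 and 59315 CPM in fl/fl and 45410, 41030 and 28115 CPM in iKO. The gate for alveolar fibroblasts held 23.1%, 23.1% and 12.5% of fl/fl and 20.0%, 41.7% and 50% of iKO mesenchymal cells (exact permutation p = 0.3). With 8 to 26 cells per hashtag, whether the kinds of cell or the RNA per cell differed could not be told apart. Immediate early genes, 22 tested in mesenchymal cells, had a median of -0.10 with none passing.

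The test of whether the genotype effect differed between endothelial and mesenchymal cells of the same hashtags found 0 of 1347 genes at an adjusted p under 0.05 (edgeR, hashtag as a block), with 112 at an unadjusted p under 0.05. The smallest p-values belonged to *Npnt*, *Oat* and *AW112010* (adjusted p = 0.086 for each), followed by *Adgre5* and *Ier3* (both 0.13). *Ier3* had a fold change of -1.08 in endothelial and 0.72 in mesenchymal cells, with 396, 254 and 436 CPM in fl/fl and 847, 409.8 and 479.9 CPM in iKO mesenchymal cells. Over all mesenchymal cells, with or without a hashtag, *Ier3* made 554 of 1358672 UMIs in fl/fl and 186 of 605135 in iKO, a lower level in iKO. An effect in 1 compartment and not in the other is thus not shown for any single gene at this depth.

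Against epithelial cells of the same hashtags the effect differed for 126 of 6129 genes (2.06%), 63 in each direction (1.03% each). This comparison was added after the effects had been seen. Of 22 immediate early genes tested in it, 14 had an effect lower in endothelial than in epithelial cells and none a higher one, with a median difference of -0.91. In epithelial cells 9 of 25 such genes rose (beside 1.75% of all genes) and none fell, with a median of 0.43. *Junb* differed by -1.36, adjusted p = 1.2e-09, *Ppp1r15a* by -1.62, adjusted p = 1.5e-12 and *Ier3* by -1.95, adjusted p = 5.4e-10. Of 16 interferon-stimulated genes, *Ifi47*, *Irf1* and *Irf9* had a lower effect in endothelial cells, with a median of -1.07. *Irf1* differed by -1.10, adjusted p = 2.9e-04. Ribosomal protein genes had a median difference of 0.29, with 3 of 76 passing. A shift common to all cells of a library does not enter these differences, but a shift of 1 compartment does.

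At day 7 after LPS, when no EPCAM-positive cells were added and all fl/fl hashtags were female and all iKO hashtags male by their RNA, 236 of 11084 genes passed in endothelial cells (2.13%), 161 higher (1.45%) and 75 lower (0.677%). The immediate early genes stood on the other side there, with 26 tested, 3 higher (*Egr3*, *Klf2* and *Klf6*), none lower and a median of 0.48. Interferon-stimulated genes had a median of -0.03 with none of 33 passing, and 1 of 9 aerocyte markers, *Car4*, fell. The effects at the 2 time points differed for 78 of 10610 genes (0.735%), 33 higher at day 21 (0.311%) and 45 lower (0.424%). *Nr4a1* had a fold change of 1.49 (adjusted p = 0.088) at day 7, which day 21 differed from by -2.49 (adjusted p = 0.039). For *Ackr3* the values were 0.63 (adjusted p = 0.055) and -2.27 (adjusted p = 0.025), and for *Dusp1* 0.30 (adjusted p = 0.41) and -1.0 (adjusted p = 0.034). *Car4* had -0.65 (adjusted p = 0.02) at day 7 and a difference of 1.36 (adjusted p = 0.0052), and *Clu* -0.73 (adjusted p = 0.015) and 1.27 (adjusted p = 2.7e-04). *Igfbp3* fell at both time points, with a fold change of -1.81 (adjusted p = 0.0026) at day 7, and the difference between days did not pass, at -3.32 (adjusted p = 0.11). *Tuba1a*, an α-tubulin gene, rose at both, by 2.83 (adjusted p = 2.5e-08) at day 7 and 0.60 (adjusted p = 0.0057) at day 21. In mesenchymal cells 3 of 5698 genes passed at day 7 (0.0527%), 2 higher (0.0351%) and 1 lower (0.0176%), and the effects differed between days for 1 of 3939, *Tuba1a*, by -2.22 (adjusted p = 0.031).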

How the data were processed

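Single-cell RNA was read with a 5′ 10x Genomics kit, and hashtag antibodies were counted beside it. The authors deposited unnormalised UMI counts per gene and barcode, made with Cell Ranger 3.1 on mm10, and Seurat 4.1.0 is named in the submitters' processing notes. Their correction for free RNA and removal of doublets are not part of these counts. The filter required 700 detected genes per barcode and a mitochondrial share of UMIs between 0.1% and 15%. A hashtag was in use at 1% or more of a library's hashtag counts and carried at 4 times its background, and cells with exactly 1 were summed. Sums of autosomal genes were tested with edgeR 4.0.16 (R 4.3.3, TMM, filterByExpr with a minimum count of 10, robust quasi-likelihood), with Benjamini-Hochberg adjustment over all genes tested, and called at 0.05. Standard errors are the log2 fold change divided by the square root of F. Shares and *Itgb1* levels were tested by exact two-sided permutation over hashtags. P-values measure the spread between hashtags within a library. Intervals cover counting error only. Gates, gene lists and tests were chosen with earlier results of these data known. Genes were named by rule: *Itgb1*, the 12 largest changes in each direction among called genes without overlap and with at least 20 CPM in 1 genotype, up to 4 called members per list and direction, the 5 smallest p where under 5 genes were called and in each interaction, and runs of at least 3 called genes within 5 Mb. *Jund*, *Jun* and *Klf6* were named after their values were seen, as were members given in list counts. The code was tested on simulated data. DESeq2 1.42.0 was an alternative, and Scrublet (scanpy 1.11.5) another, with no doublet caller in the main analysis. Counts of the day 7 PBS library entered no comparison. Promoters came from RefSeq. A result that needs a withheld item is not reported here.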

Additional observations from a re-analysis of the deposited data

Results flagged for a closer look

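The genotype effect at day 21 differed from that at day 7 by a test of the difference itself for the following values, each given as the day 21 minus the day 7 log2 fold change (edgeR interaction, adjusted p under the 0.05 threshold, 78 of 10610 genes in endothelial cells). Among genes of the immediate early list the differences were -1.71 for *Ier3*, -2.49 for *Nr4a1*, -0.92 for *Klf4* and -1.0 for *Dusp1*. Among genes of vessels and matrix they were -2.27 for *Ackr3*, -1.7 for *Adamts1*, -0.88 for *Smad6*, 1.36 for *Car4*, 0.71 for *Timp2*, 1.27 for *Clu* and 0.67 for *Clic5*, an intracellular chloride channel protein. Transcripts abundant in epithelium differed by 1.78 (*Lcn2*) and 1.62 (*Chil1*). The remaining genes were *Gm8797* (2.90), *Tuba1a* (-2.23), *AY036118* (-1.31), *Ncoa3* (0.89) and *AW112010* (1.29). In mesenchymal cells *Tuba1a* differed by -2.22. The share of aerocytes differed by 21.9 percentage points and that of general capillary cells by -24.3 points (exact permutation within days, p = 0.005 each, the smallest possible). Each time point is a separate pair of libraries, and at day 7 the fl/fl hashtags held *Xist* RNA and the iKO hashtags Y-linked RNA, so that sex and genotype cannot be told apart at day 7. Groups of 3 hashtags were too small for a test of single outlying samples.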

How the results depend on the processing

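The number of endothelial genes called (133) was 272 with no filter on low counts and 48 with hashtags assigned at 60% of tag counts. It was 49 in general capillary cells and 94 (33 higher, 61 lower) without genes at least 10 times higher in epithelial cells. In alternatives chosen after seeing the data it was 285 with the share of female cells as a covariate and 31 in aerocytes. With the aerocyte share as a covariate, also chosen then, it was 43. It ranged from 49 to 195 when 1 hashtag was left out. The number of mesenchymal genes called (7) was 13 with DESeq2's Wald test, 55 with no filter, 13 with gates at 4 UMIs, 0 without genes high in epithelial cells, 1 in alveolar fibroblasts, and, added after seeing the data, 3 with hashtags carried at 10 times background and 4 with the female covariate, with 3 (without iKO hashtag 2) to 10 when 1 hashtag was left out. For endothelial against mesenchymal effects (0) it was 18 with no filter and 0 to 6 with 1 hashtag left out. For day 21 against day 7 in endothelial cells (78) it was 16 in general capillary cells and 31 to 89 with 1 hashtag left out, lowest without iKO hashtag 2 and at 43, 48 and 43 without fl/fl hashtags 1 and 2 and iKO hashtag 1. In mesenchymal cells (1) it was 0 to 2, with 0 without fl/fl hashtag 1 or 3 or iKO hashtag 2 or 3 (404 to 491 genes at an unadjusted p under 0.05). Signs reversed for *Cyr61* (0.0024) and *Timp2* (-0.26) in general capillary cells, for *Irf1* (0.11), *Itgb1* (-0.026) and *Nrp1* (-0.044) in endothelial cells with the aerocyte covariate, for *Ier3* in mesenchymal cells at 60% of tag counts (-0.23) and for *Itgb1* in mesenchymal cells with the female covariate (-0.19). The cause was not tested. Of the 133 endothelial genes, 130 were also called with DESeq2's size factors and 120 of 131 tested with doublets removed. DESeq2's Wald test, where 706 genes had an adjusted p, also called 64, 18 higher and 46 lower, and all 133 kept their sign. Without iKO hashtags 1, 2 and 3 it was 68, 48 and 56, and without fl/fl hashtags 1, 2 and 3 it was 108, 70 and 108. It was 36 of 132 tested with hashtags at 60% and 19 of 133 with the aerocyte share as a covariate, where 127 kept their sign. The differences in shares of aerocytes and general capillary cells and in *Itgb1* CPM kept their sign with hashtags at 60% and gates at 4 UMIs, but at 60% the shares of both capillary gates overlapped between genotypes. Mesenchymal sums rest on 8 to 26 cells per hashtag. No paired analysis was possible because the labels give the genotypes no shared replicate numbers.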
